A study of Mus musculus with 11 samples.

Results

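In mouse embryonic stem cells, 2141 of the 36588 unified H3K4me1 peaks on chr1-19 also lay on H3K27me3 and were rich in CpGs. A peak was taken when it overlapped by at least 1 bp a unified H3K27me3 peak under 20 kb wide, overlapped neither an H3K27me3 peak of 20 kb or wider nor an H3K9me3 peak, and held 30 or more CpGs per kb. The regions were thus selected on peak positions, which rest on the reads of these libraries, and on CpG density, and both are given below as description. The methylation calls were not used to choose them, although DNA methylation is known to vary with CpG density.

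CUT&Tag tethers a transposase to an antibody so that chromatin carrying the chosen histone mark is cut and sequenced. In CUT&Tag-BS the recovered fragments are then treated with bisulfite. Each CpG call, methylated or not, is thus meant to come from DNA next to the mark. Calls also fell outside the peaks of a mark: H3K9me3 run 2 had 12717 in these regions, which overlap no H3K9me3 peak. Whether such calls come from DNA next to the mark was not tested. All libraries were made from E14 cells, an embryonic stem cell line of 129/Ola background kept in serum with leukemia inhibitory factor. The anti-H3K4me1 and anti-H3K9me3 libraries started from 250000 cells and were each sequenced in a run of 35-bp reads (run 1) and a run of 75-bp reads (run 2). The anti-H3K27me3 libraries started from 4000, 20000, 100000 and 250000 cells, and each mark had 1 library without bisulfite as a control. The labels do not say whether the runs of a mark came from separate cultures; they were treated as repeat sequencing of 1 library. The 8 bisulfite data sets are thus taken to hold no biological replicates, and tests below compare libraries and not marks.

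H3K27me3 is laid down by Polycomb repressive complex PRC2, which in embryonic stem cells is found mainly at CpG islands of developmental genes that are silent or barely transcribed. H3K4me1 marks enhancers and the flanks of promoters, and unmethylated CpG islands are the usual seat of H3K4 methylation as well. DNA methylation and PRC2 binding at CpG-dense DNA are largely exclusive of each other in these cells, whereas at CpG-poor DNA the mark and methylation can occur together.

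The sequences upstream of 5 genes whose starts lie in these peaks show the range. Each is the 250 bases before the gene start, from RefSeq on GRCm38.p6, printed 5′ to 3′ on the gene's strand. The first 4 are the deepest-covered forkhead, homeobox, hedgehog and Fgf genes whose start in the sequence table fell in a peak, and their capitals mark every CpG. The last, Tuba3a, was added after its values were seen because it is methylated; its capitals mark only the CpGs methylated in 50% or more of 5 or more calls of H3K27me3 from 250000 cells. Foxi3, a forkhead factor of craniofacial placodes, is read on the plus strand at chr6:70956356-70956605. Nkx6-2, a homeobox factor of the neural tube and oligodendrocytes, is on the minus strand at chr7:139582798-139583047. Dhh, the hedgehog ligand of Sertoli and Schwann cells, is on the minus strand at chr15:98898541-98898790. Fgf11, a fibroblast growth factor homologous factor, is on the minus strand at chr11:69802281-69802530. Tuba3a, an alpha-tubulin of the testis, is on the minus strand at chr6:125286082-125286331.
Foxi3: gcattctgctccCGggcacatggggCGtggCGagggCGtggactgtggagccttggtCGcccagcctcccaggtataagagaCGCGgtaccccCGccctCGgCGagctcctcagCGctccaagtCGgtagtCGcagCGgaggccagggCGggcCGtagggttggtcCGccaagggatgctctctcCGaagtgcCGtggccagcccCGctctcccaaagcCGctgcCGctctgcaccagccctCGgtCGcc
Nkx6-2: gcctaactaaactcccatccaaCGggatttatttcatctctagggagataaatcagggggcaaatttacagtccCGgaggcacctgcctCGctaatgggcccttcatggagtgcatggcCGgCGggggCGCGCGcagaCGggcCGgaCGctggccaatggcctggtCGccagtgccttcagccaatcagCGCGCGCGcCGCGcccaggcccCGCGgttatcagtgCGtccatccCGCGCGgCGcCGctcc
Dhh: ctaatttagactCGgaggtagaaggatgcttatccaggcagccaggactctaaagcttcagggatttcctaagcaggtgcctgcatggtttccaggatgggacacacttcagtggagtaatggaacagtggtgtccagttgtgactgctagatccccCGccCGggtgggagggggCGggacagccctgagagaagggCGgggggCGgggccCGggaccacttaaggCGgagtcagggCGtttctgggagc
Fgf11: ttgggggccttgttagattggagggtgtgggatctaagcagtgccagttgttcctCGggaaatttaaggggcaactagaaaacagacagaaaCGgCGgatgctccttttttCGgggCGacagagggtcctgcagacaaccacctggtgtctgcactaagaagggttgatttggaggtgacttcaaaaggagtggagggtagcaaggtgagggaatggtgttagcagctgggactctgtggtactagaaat
Tuba3a: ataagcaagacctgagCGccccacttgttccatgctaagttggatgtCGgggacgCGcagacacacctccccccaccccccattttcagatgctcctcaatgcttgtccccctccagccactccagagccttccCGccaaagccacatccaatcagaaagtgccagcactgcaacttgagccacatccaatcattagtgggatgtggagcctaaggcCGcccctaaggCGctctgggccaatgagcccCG
The Foxi3 stretch holds 24 CpGs, and 13 of its 3483 calls in H3K27me3 from 250000 cells were methylated (0.373%), with no single CpG above 1.75%. In H3K4me1 run 2 the same bases had 1 methylated call of 68. The 26 CpGs before Nkx6-2 were methylated in 1.08% of 834 calls in H3K27me3 and in 3 of 59 calls in H3K4me1 run 2. Dhh holds only 9 CpGs there, at 1.44% of 557 calls. The 5 CpGs before Fgf11 were methylated in 15.8% of 139 calls, so a gene start in a CpG-dense peak need not itself lie in the densest, least methylated stretch. Tuba3a stood apart: 7 of its 8 CpGs were at 50% or over and 69.6% of 79 calls were methylated in H3K27me3 from 250000 cells, beside 79.0% of 62 calls from 100000 cells and 8 of 12 calls in H3K4me1 run 2. Of the 250 bases, 167 lie in the peak for Nkx6-2 and 178 for Tuba3a, and all of them for the other 3 genes.

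The promoters in these peaks were rich in CpGs and in GC box letters. Over the 914 RefSeq promoters whose start fell in one of the peaks (250 bases before to 50 after the start, none on chr18), the median number of CpGs was 19, against 7 over all 31396 promoters of the table. The GC box letters GGGCGG, read on both strands, occurred in 70.0% of the 914 and in 36.0% of all promoters. The TATA letters TATAAA occurred in 6.24% against 13.6%, the letters CCAAT in 29.5% against 37.3%, and the E-box CACGTG in 7.66% against 7.14%. These shares describe the letters in the windows only, and GGGCGG itself holds a CpG, the dinucleotide the rule counts.

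The peaks were short. Their median width was 965 bp (501 to 11421 bp), the median density 46.5 CpGs per kb (up to 160), and together they covered 3.13 Mb and 149173 CpGs. They lay on 1878 distinct H3K27me3 peaks with a median width of 7129.5 bp, and 1802 (84.2%) lay wholly inside one, so that a typical region was a short H3K4me1 segment within a longer H3K27me3 segment. On 226 H3K27me3 peaks there were 2 or more of them, 492 in all and at most 4 on 1 peak; such neighbours share a domain and are not independent. The H3K27me3 lists of single libraries overlapped 1987 (92.8%) of them at 250000 cells, 1902 at 100000, 1439 (67.2%) at 20000 and 82 (3.83%) at 4000 cells, and 2106 (98.4%) were found in the control without bisulfite. For H3K4me1, run 1 overlapped 1523 (71.1%), run 2 1361 (63.6%) and the control 1848 (86.3%). Many of the regions were thus in the unified list without being in the list of a given bisulfite run.

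Gene starts lay in 886 of the 2141 peaks (41.4%, 95% Wilson interval 39.3 to 43.5), and 63.1% had a start within 1000 bp. The share with a start in the peak was 18.1% for the 2378 H3K4me1 peaks that passed every other part of the rule but had fewer CpGs. It was 43.8% for 1894 CpG-dense H3K4me1 peaks without H3K27me3, and 70.5% for 940 CpG-dense H3K27me3 peaks without H3K4me1. These classes differ in median width (1330.5, 672.5 and 2036 bp in the same order, against 965 bp), and a wider peak has more room for a start. Within 1000 bp their shares were 31.2%, 61.2% and 76.0%. Starts came from RefSeq promoters on GRCm38.p6 where the table gave one and otherwise from the CpG-denser end of the gene, a rule that found the right end for 90.2% of 11790 protein-coding genes with a known start. CpG density entered that rule, and 84.7% of the peaks touched a protein-coding gene; exon and intron bounds were not used here.

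Some developmental regulators started in these peaks, and many others started in the wide H3K27me3 peaks that the rule leaves out. None of the 39 Hox cluster genes started in one of these peaks, and all 39 started in an H3K27me3 peak of 20 kb or wider. Among 99 non-Hox homeobox genes, 9 started in one (among them Cdx1, Gsx2, Nkx6-2, Otx1, Otx2, Phox2a, Pou4f2 and Tlx2) and 70 started in a wide H3K27me3 peak. Forkhead genes gave 7 of 33 (Foxa3, Foxb2, Foxd3, Foxi3, Foxj1, Foxn4 and Foxq1). The other regulators were Pax8, 1 of 9 Pax genes, Sox6 and Sox7 of 18 Sox genes, Gata5 of 5 Gata genes, Tbx21 of 16 T-box genes, and Neurod1 and Hand1 of 26 neural basic helix-loop-helix genes. Wide H3K27me3 peaks held the starts of 14 forkhead, 7 Sox and 12 neural basic helix-loop-helix genes, so a good part of these families lay in neither. H3K27me3 peaks of any width held 27, 13 and 22 starts of these families, so some of those genes started in a narrower H3K27me3 peak.

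Among signalling genes, 3 of 19 Wnt ligands (Wnt2b, Wnt6, Wnt16), 3 of 20 Fgf family genes (Fgf2, Fgf15 and the intracellular Fgf11) and 6 of 35 TGF-beta, BMP and hedgehog ligands and antagonists (Bmp6, Bmp8a, Gdf1, Tgfb1, Dhh and the BMP antagonist Chrd) had a start there. For comparison, 840 of 20661 protein-coding genes (4.07%) did. None of 26 Polycomb genes, 23 pluripotency genes or 71 ribosomal protein genes did, and 1 of 28 germline genes, Rpl10l, did. H3K4me1 peaks touched 21 of the 23 pluripotency genes, but also 89 of 99 non-Hox homeobox genes and 35 of 39 Hox genes, so this does not check the cell type, and no expression values were used here.

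Methylation over the peaks was low in every library. In H3K27me3 it was 8.14% of 36659 calls at 4000 cells, 8.15% of 488820 at 20000, 8.24% of 2354414 at 100000 and 8.35% of 3574845 at 250000 cells. The 4 pooled values thus lay within 1 percentage point of each other over a wide range of depths. The mean of single-CpG levels was instead 8.38% at 4000 cells and 10.8% at 250000. The mean of peak levels was 8.01% and 11.5% in the same libraries. These means cover the CpGs or peaks that each library reached: 645 peaks had 20 or more calls at 4000 cells and 2140 at 250000. H3K4me1 gave 12.8% in both runs (12.8 ± 0.0441, SD, n = 2 runs, taken as 1 library; 252267 and 498231 calls). H3K9me3, whose peaks the rule excludes, gave 14.8% of 5180 calls and 14.9% of 12717 calls. Across the 19 autosomes the level ranged from 4.48% to 11.3% in H3K27me3 from 250000 cells and from 7.17% to 16.5% in H3K4me1 run 2, so the spread between chromosomes was larger than that between libraries of 1 mark.

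**Figure D1:**
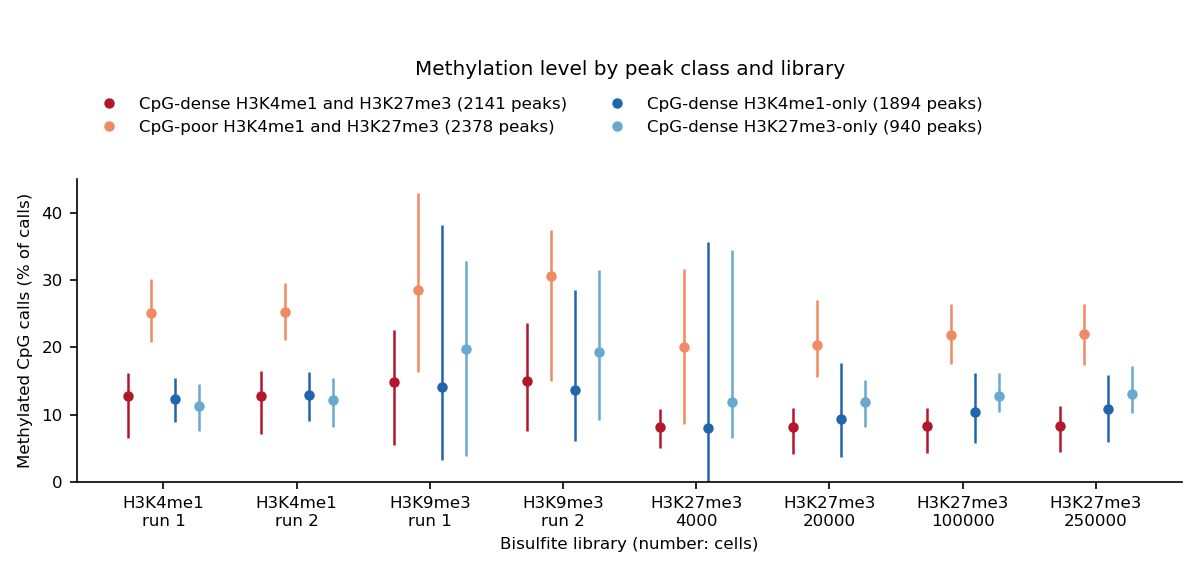
Methylated calls as a percentage of all CpG calls (y axis) in each of 8 bisulfite libraries (x axis) for 4 classes of peaks, shown in 4 colours. Points are pooled levels and lines run from the lowest to the highest of 19 autosomes; the CpG-dense peaks with both marks (red) lie between 8.14% and 8.35% in the H3K27me3 libraries and at 12.8% in both H3K4me1 runs.

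The CpG-poor peaks with both marks were methylated at 25.1% in H3K4me1 run 1, at 25.3% in run 2 and at 20.1% to 22.0% in the H3K27me3 libraries. The CpG-dense peaks were lower in 19 of 19 autosomes in each of these 6 data sets, by 11.9 to 13.6 points in H3K27me3. Against CpG-dense peaks with H3K4me1 alone, the pooled H3K4me1 level was 12.8% against 12.9% in run 2, lower in 11 of 19 autosomes. The pooled H3K27me3 level from 250000 cells was 8.35% against 10.8%, lower in 17 of 19 autosomes, on 77850 H3K27me3 calls in those peaks; at 20000 and 4000 cells the counts were 10 and 8 of 19. With each peak of 20 or more calls counting once the order turned. The median peak with both marks was at 9.57% in H3K4me1 run 2 and 7.16% in H3K27me3, and the median peak with H3K4me1 alone at 5.17% and 2.94%. Peaks under 10% were likewise fewer among those with both marks (51.5% against 62.4% in H3K4me1 run 2, 60.5% against 70.5% in H3K27me3). Peaks at 50% or over were fewer as well (2.07% against 6.48%, and 1.92% against 6.19%). In H3K27me3 from 250000 cells these values cover 2140 of 2141 peaks with both marks but only 1083 of 1894 (57.2%) with H3K4me1 alone. The latter class also had fewer CpGs per kb (median 40.2 against 46.5). Against CpG-dense peaks with H3K27me3 alone, the H3K27me3 level was 8.35% against 13.1%, lower in 18 of 19, while H3K4me1 was 12.8% against 11.3% in run 1 and 12.8% against 12.2% in run 2, lower in only 5 and 10 of 19. Those peaks also had fewer CpGs per kb (median 39.4 against 46.5). These counts of chromosomes describe the spread and are not a test over replicates.

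Within the 2141 peaks the level followed CpG density. Between 30 and 35 CpGs per kb (378 peaks) it was 14.6% in H3K27me3 from 250000 cells and 18.1% in H3K4me1 run 2. Between 60 and 80 (385 peaks) it was 6.42% and 7.45%, and at 80 or more (184 peaks) it was 3.79% in H3K27me3, so both libraries fell steeply and came closer to each other with rising density. Levels differed across the threshold of the rule too. The 167 peaks with 28 to 30 CpGs per kb, just outside, had 18.5% in H3K27me3 and 21.0% in H3K4me1, and the 156 with 30 to 32, just inside, had 15.3% and 18.9%. The nearest inside were the peaks at Foxn4, Cdx1 and Myo3b (7.58% to 14.3% in H3K27me3) and the nearest outside those at Dpys, Esco1 and Smad3 (3.55% to 16.6%).

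**Figure D2:**
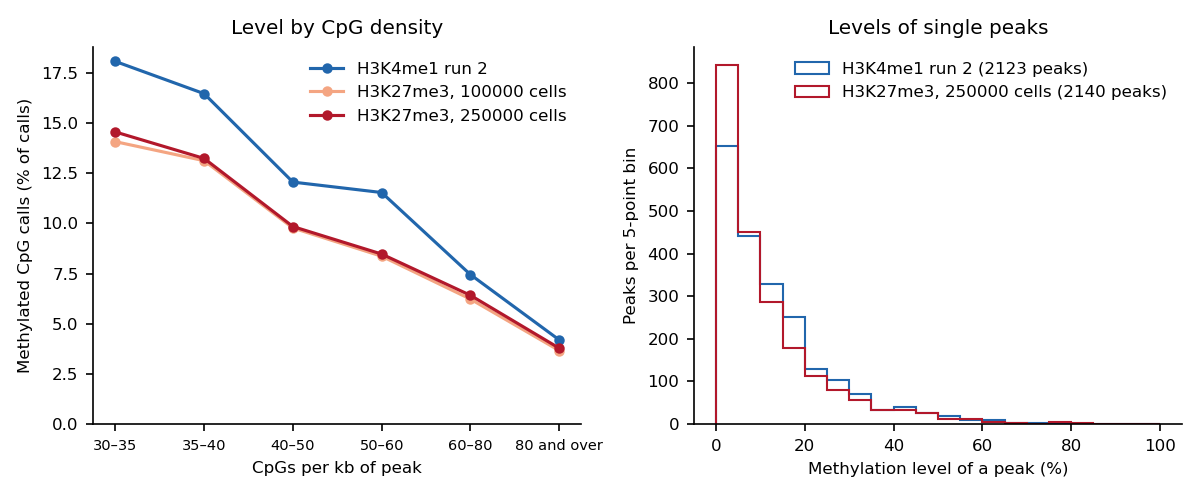
Left, pooled methylation level (y axis, percent of calls) by CpG density of the peak (x axis, CpGs per kb) in 3 libraries, falling from 14.6% to 3.79% in H3K27me3 from 250000 cells. Right, number of peaks (y axis) by the level of the single peak (x axis, percent, bins of 5 points) for peaks with 20 or more calls; most peaks lie under 10%.

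Single peaks were mostly near the floor. Of the 2140 with 20 or more calls in H3K27me3 from 250000 cells, 1295 (60.5%) were under 10%, 37.6% were between 10% and 50%, and 41 (1.92%) were at 50% or over. In H3K4me1 run 2 the shares were 51.5%, 46.4% and 2.07%. At single CpGs with 10 or more H3K27me3 calls (91699 CpGs), 46.2% had no methylated call, 39.9% were above 0 and under 20%, 12.8% were from 20% to under 80%, and 1.17% were at 80% or over. CpGs that were methylated in nearly every call were therefore rare here.

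The most deeply covered peaks were at Hic1 (a transcriptional repressor), Npr3 (the clearance receptor of natriuretic peptides), Ajm1 (an apical junction protein), Tlx2 (a homeobox factor of enteric neurons), and an intergenic position 26013 bp from the start of Ythdf1 (chr2:180889395-180894923). At Hic1 (chr11:75164684-75171084, 433 CpGs) H3K27me3 gave 8.12%, 6.49%, 6.85% and 7.43% from the smallest to the largest cell number, and H3K4me1 gave 7.65% in run 1 and 10.4% in run 2. The H3K4me1 values overlapped the H3K27me3 range there. At Npr3 the corresponding values were 3.43%, 1.75%, 2.06% and 1.60%, and 3.62% and 2.97%. Ajm1 reached 14.5% in H3K27me3 from 250000 cells and 18.6% in H3K4me1 run 2, the highest of the 5 in both, but the H3K27me3 libraries from 100000 and 250000 cells also differed there (12.4% against 14.5%, adjusted p = 0.00901, Fisher's exact test).

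The least methylated of the well covered peaks were at genes of quite different function. Among peaks with 2000 or more calls in H3K27me3 from 250000 cells, a group looked at after the values were known, the lowest were at Smarca2, a catalytic subunit of the BAF remodelling complex (0.333% of 2401 calls), Efna5, an ephrin (0.338% of 2369), Thrb, a thyroid hormone receptor (0.377% of 3979), Dgat2, an enzyme of triglyceride synthesis (0.390% of 2561), and near Jun, the AP-1 subunit (0.417% of 3115). In H3K4me1 run 2 those at Smarca2, Thrb and Jun had no methylated call of 94, 76 and 160, which allows levels of up to 3.19%, 3.95% and 1.88%. A further 44 peaks had no methylated call in H3K27me3; the deepest, near Sash1, had 0 of 344 calls, which allows a level of up to 0.872%. Over these 44 peaks H3K4me1 run 2 had 1.31% methylated. Limits of this kind cover counting error only.

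At the other end, the 41 peaks at 50% or over were narrow (median 653 bp) and had a median of 35.9 CpGs per kb. Only 6 held a gene start: those of Medag, Tuba3a, Hpn, Plvap, Gm24105 and Gm52918. Other libraries, which did not choose them, gave high levels too. Of 38 with 20 calls in H3K27me3 from 100000 cells, 31 were again at 50% or over and the lowest was at 41.4%. Of 39 with 20 calls in H3K4me1 run 2, 21 were at 50% or over, with a median of 50.4% and a lowest of 15.4%.

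The 10 highest with at least 50 calls lay near Dyrk2, Rnf112, Tmc7, Fbxo2, Mb, Hjv, Hdac7, Coro6, Dok3 and Usp10, none with a gene start inside. The peak 65114 bp from Dyrk2, a protein kinase gene, (chr10:118803089-118803789) was methylated in 96 of 120 calls in H3K27me3 from 250000 cells, 83.6% of 61 from 100000, and in 16 of 20 and 29 of 39 calls in H3K4me1 run 1 and run 2. Within Hdac7, a histone deacetylase gene, the 2 deepest H3K27me3 libraries were at 64.9% and 65.2%, and H3K4me1 was at 71.9% in run 1 and 72.9% in run 2. Inside Rnf112, a brain RING finger gene, the libraries disagreed: 75.0% of 64 calls at 250000 cells, 52.5% of 59 at 100000, and 47.1% and 45.4% in H3K4me1. Levels that chose a member are given here without a test.

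Methylation was lower in the middle of the peaks than towards their edges. When each peak was divided into 3 equal parts, the level of the middle part was 6.65% in H3K27me3 from 250000 cells and 10.7% in H3K4me1 run 2, against 9.39% and 14.3% in the 2 outer parts, lower in the centre in 19 of 19 autosomes for both (18 of 19 in H3K4me1 run 1). The 8061 CpGs that lay outside the H3K27me3 peak had 17.5% in H3K27me3 and 19.2% in H3K4me1 run 2, against 8.33% and 12.3% inside, so both libraries were higher beyond its edge. Coverage there was 1.07 H3K27me3 calls per CpG, against 25.3 inside.

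Around gene starts the level formed a trough. Over 654 peaks with a protein-coding start in the RefSeq table, the 250 bases before the start had 3.43% in H3K27me3 from 250000 cells and 4.04% in H3K4me1 run 2. The level was 34.0% and 27.2% between 2000 and 1750 bp upstream, and in H3K27me3 it was 31.2% between 1750 and 2000 bp downstream. Peaks with a start had 7.19% in H3K27me3 and 11.2% in H3K4me1 run 2, and those without had 9.56% and 14.8%. Peaks with a start also had more CpGs per kb (median 48.5 against 44.7) and were wider (median 1315 against 817 bp). Calls per CpG dipped just after the start in both libraries. H3K4me1 run 2 went from 2.95 in the 250 bases before it to 1.96 between 250 and 500 bp after it, and 2.27 between 500 and 750 bp, and H3K27me3 from 250000 cells had 23.0, 19.4 and 22.4 in the same bins.

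**Figure D3:**
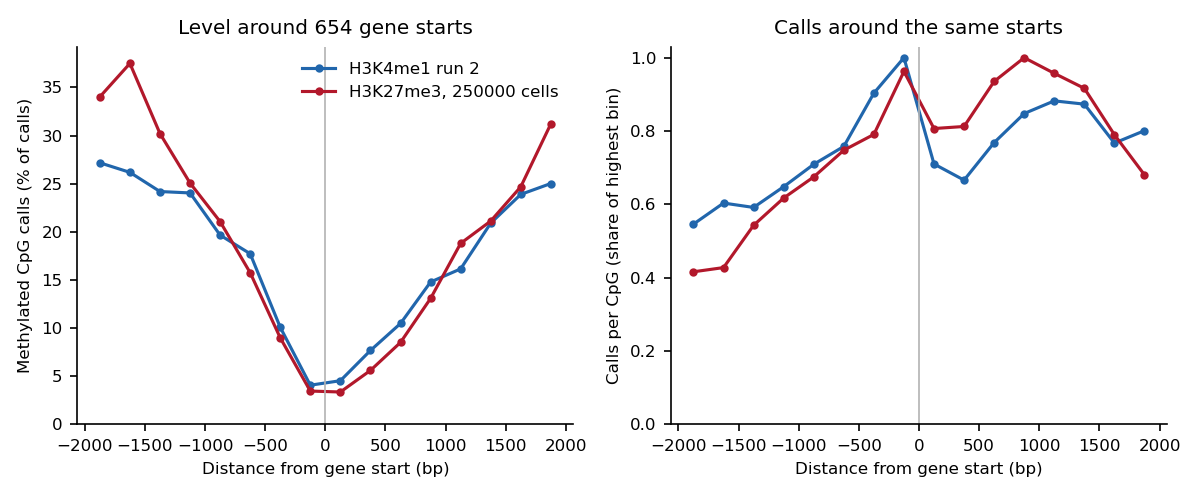
Left, methylation level (y axis, percent of calls) by distance from 654 gene starts (x axis, bp, bins of 250 bp, downstream positive) in H3K4me1 run 2 and H3K27me3 from 250000 cells. Right, calls per CpG in the same bins as a share of each library's highest bin. In the bin before the start the level was 4.04% in H3K4me1 run 2 and 3.43% in H3K27me3 from 250000 cells. H3K4me1 had its most calls per CpG in that bin, and H3K27me3 its lowest level, 3.34%, in the next bin.

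Whether DNA recovered in the H3K4me1 and H3K27me3 libraries differs in methylation within the same regions was asked at shared CpGs. There were 125302 CpGs called in both H3K4me1 run 2 and H3K27me3 from 250000 cells. Summed over calls the level was 12.5% against 8.49%, a difference of 4.01 points. Averaged over CpGs, each CpG counting once, it was 12.3% against 11.2%, a difference of 1.15 points, and 1.36 points when CpGs were weighted by the calls in both libraries. The difference was already small when each peak counted once (mean peak levels of 12.9% and 11.5%, the first a mean of both H3K4me1 runs), so the summed value also carries how each library spreads its calls between peaks and within them. For H3K27me3 from 100000 against 250000 cells the same 3 differences were -0.0957, -0.0215 and -0.0575 points. Peak levels correlated between these libraries with r = 0.954 (2130 peaks), between the H3K4me1 runs with r = 0.944 (1999 peaks) and between H3K4me1 run 2 and H3K27me3 with r = 0.878 (2122 peaks), as a description across peaks that differ in depth.

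Peak by peak, Fisher's exact test (two-sided, calls at CpGs seen in both libraries, at least 20 in each, Benjamini-Hochberg over all 10996 testable H3K4me1 peaks) was possible for 2116 of the 2141. H3K4me1 run 2 was higher in 223 (10.5%, background 6.07%) and H3K27me3 in 31 (1.47%, background 4.37%), with median differences of 7.78 and -13.0 points. The median difference over all 2116 was 0.965 points, against 0.155 over all peaks tested. The same mark at 100000 against 250000 cells called 10 of 2120 (0.472%, background 0.353%). Depth moved with the first count: these peaks had a median of 724 shared H3K27me3 calls, against 76 over all peaks, while H3K4me1 calls were 135 against 131. With at least 50 calls in each library H3K4me1 was higher in 253 of 1888 (13.4%, background 11.8%) and H3K27me3 in 37 (1.96%, background 5.55%), which brings the first share near its background and leaves the second below it. What part depth has in these counts was not tested further.

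A Cochran-Mantel-Haenszel test, which compares the libraries within each CpG, found H3K4me1 higher in 135 (6.38%, background 3.87%) and H3K27me3 higher in 17 (0.803%, background 1.49%), and 91 and 11 of these were also past Fisher's test. Both H3K4me1 runs lay above the H3K27me3 libraries from 20000, 100000 and 250000 cells in 678 of 1769 peaks with 20 calls in all 5 (38.3%, background 40.2%) and below them in 242 (13.7%, background 14%), both near the background. With those 3 H3K27me3 libraries taken as samples of a mark and H3K4me1 run 2 as a lone sample assumed to vary as they do, limma called 0 of 1868 peaks (smallest adjusted p = 0.124), with 380 higher and 71 lower in H3K4me1 at an unadjusted p under 0.05 (24.1%, against 24.7% of all 4613 peaks fitted).

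**Figure D4:**
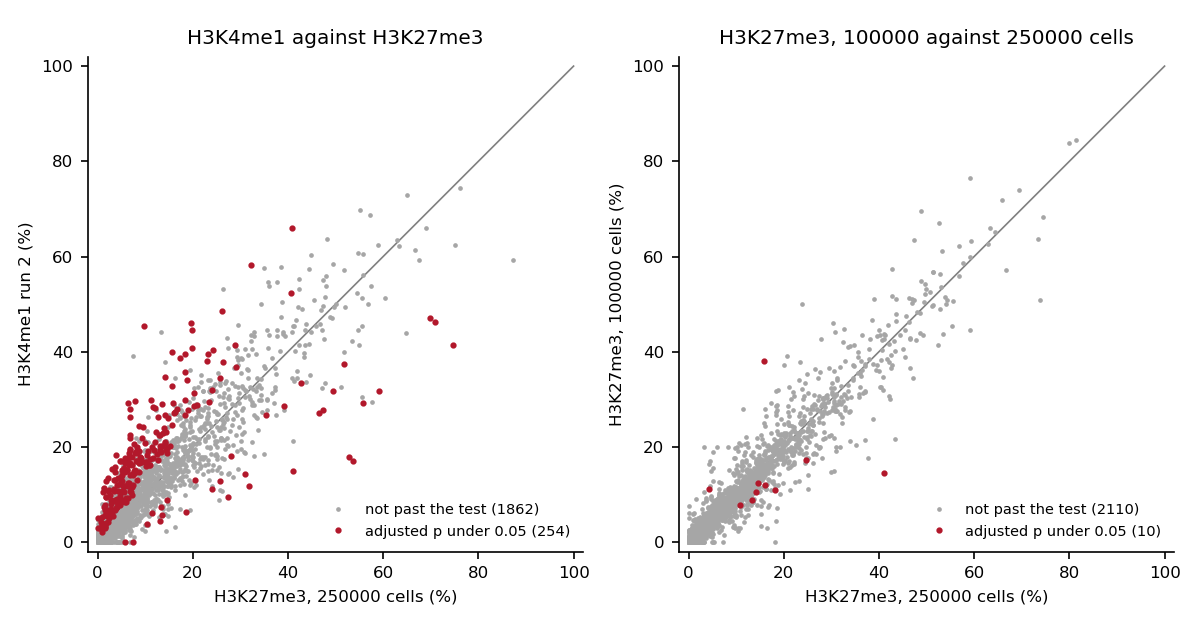
Methylation level of single peaks in percent at CpGs called in both libraries. Left, H3K4me1 run 2 (y axis) against H3K27me3 from 250000 cells (x axis), with 223 and 31 of 2116 peaks past Fisher's exact test in red; right, H3K27me3 from 100000 cells (y axis) against 250000 cells (x axis), with 10 of 2120 in red, and grey lines mark equal levels.

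A homeobox gene and an insulin signalling gene, chosen after their values were seen, show how the calls of the 2 libraries were spread over a peak. At Nkx6-2 (chr7:139576039-139582964, 6926 bp, overlapping Nkx6-2 and Inpp5a) H3K4me1 gave 18.1% in run 1 and 15.6% in run 2, and H3K27me3 1.18%, 2.91%, 3.49% and 3.04% from 4000 to 250000 cells, with no overlap. At shared CpGs it was 15.3% against 3.03% (adjusted p = 2.17e-61, Fisher's exact test with Benjamini-Hochberg adjustment), a difference of 12.2 points that shrank to 4.77 points within CpGs. The right-hand 228 CpGs, which hold the gene start, were at 1.28% in H3K27me3 and 4.40% in H3K4me1. The other 106 CpGs were at 26.7% and 31.4%. H3K27me3 had 93.1% of its calls in the right-hand part, and H3K4me1 58.6%.

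At Irs2, which encodes an adaptor of the insulin receptor, the peak (chr8:11003981-11007620) lay 1309 bp from the start. H3K4me1 was at 45.8% and 47.3%, and H3K27me3 at 20.6%, 20.8% and 17.5% from 20000 to 250000 cells, while the library from 4000 cells had only 9 calls. At shared CpGs the difference was 24.6 points (adjusted p = 2.85e-09, Fisher's exact test), and within CpGs it was -0.0557 points. The left-hand 83 CpGs were methylated at 66.3% in H3K4me1 and 72.2% in H3K27me3, and the right-hand 72 CpGs at 0.676% and 0.395%. Of the H3K4me1 calls 71.0% fell on the left, and of the H3K27me3 calls 23.8%. Both splits were placed after the values were seen.

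**Figure D5:**
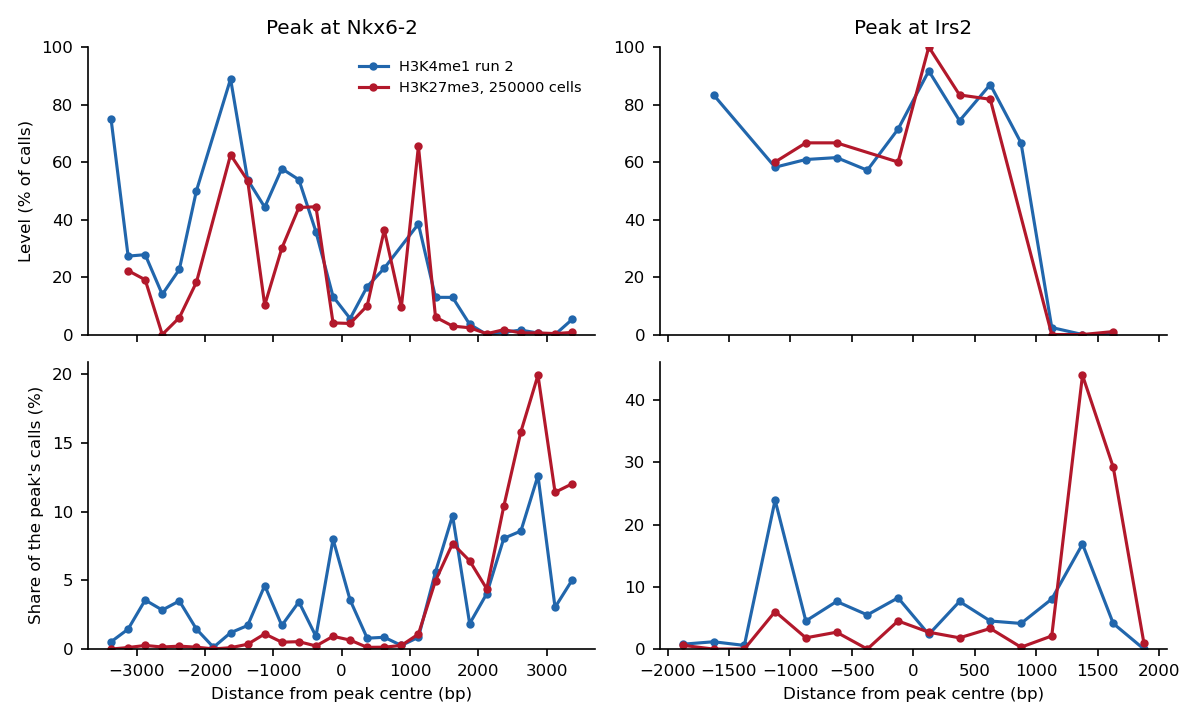
Level in percent of calls (upper row, bins with 5 or more calls) and share of the peak's calls per 250-bp bin in percent (lower row) by distance from the peak centre in bp (x axis) at Nkx6-2 (left) and Irs2 (right). At Irs2 the curves of H3K4me1 run 2 and H3K27me3 from 250000 cells nearly coincide in level, while 76.2% of the H3K27me3 calls and 29.0% of the H3K4me1 calls fall in the unmethylated right-hand part.

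The other large differences lay in narrow peaks within genes, with few calls. H3K4me1 was higher at Ptpru, a receptor tyrosine phosphatase gene (45.5% against 9.68%), at the tropomyosin gene Tpm2 (46.0% against 19.6%), Phldb1 (58.2% against 32.3%) and the cullin gene Cul9 (65.9% against 40.8%). At Ptpru and Tpm2 the library from 100000 cells gave 38.9% of 18 calls and 38.2% of 55, closer to H3K4me1 than the library from 250000 cells was. At Phldb1 and Cul9 H3K4me1 run 1 was at 44.0% of 25 calls and 47.1% of 17. The library from 100000 cells lay near run 1 there, at 43.6% of 78 calls and 46.7% of 287. H3K27me3 was higher at Lrrc74a, Zfp775, Rnf112, Tuba3a and the prostaglandin receptor gene Ptger4. The Tuba3a peak (chr6:125285752-125286259) was at 59.0% of 205 calls at 250000 cells and 76.6% of 141 at 100000, against 44.2% of 52 and 31.7% of 82 in the H3K4me1 runs (adjusted p = 0.00118, Fisher's exact test). At Ptger4 H3K27me3 was at 55.8% and 50.6% in the 2 deepest libraries, and the H3K4me1 runs at 20.5% and 29.3%, again without overlap. Of the 2116 peaks tested, a difference of 20 points or more past Fisher's test was found in 14 with H3K4me1 higher (0.662%, background 0.618%) and in 9 with H3K27me3 higher (0.425%, background 3.04%).

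The 5 widest peaks, at Islr2, Icam4 with Icam5, Shank1, Plec and Kcnh3, were 9883 to 11421 bp. They covered genes of neuronal surface proteins (Islr2, Icam5), an erythroid adhesion molecule (Icam4), a postsynaptic scaffold (Shank1), the cytolinker plectin (Plec) and a potassium channel (Kcnh3). Plec had the highest H3K4me1 and H3K27me3 levels of the 5. It was at 42.1% in H3K4me1 run 1, 41.9% in run 2, and 29.8%, 28.7% and 29.0% in H3K27me3 from 20000 to 250000 cells. Its difference at shared CpGs was 12.7 points (adjusted p = 5.70e-33, Fisher's exact test) and within CpGs 3.11 points. The Shank1 peak was at 17.3% and 17.0% in the H3K4me1 runs and at 8.10% in H3K27me3 from 250000 cells. There the difference was 8.95 points at shared CpGs (adjusted p = 1.56e-26, Fisher's exact test) and 5.81 points within CpGs. Islr2 and Kcnh3 also passed Fisher's test, with 2.51 and 4.98 points at shared CpGs and 2.70 and 1.80 points within CpGs. Icam4 had 18.1% and 17.2% in H3K4me1 and 17.1% to 24.5% in H3K27me3, with the groups overlapping.

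The 36 listed regulators, ligands and germline genes with a start in these peaks (37 peaks) were, with few exceptions, low. Their median level was 6.01% in H3K27me3 from 250000 cells and 8.40% in H3K4me1 run 2, beside 7.15% and 9.59% over all 2141. H3K4me1 was higher past Fisher's test in 6 of 36 tested and H3K27me3 in 0, beside 10.5% and 1.47% of all these peaks and 6.07% and 4.37% of all H3K4me1 peaks tested. With 36 peaks neither count can be told from the share over all these peaks, nor the second from its share over all peaks tested. What part depth has in the first count was not tested. The 6 peaks were at Nkx6-2, Tlx2, Sox7, Foxn4, Gdf1 and Dhh.

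Forkhead genes ranged from 1.17% at Foxq1 to 11.6% at Foxj1, the master factor of motile cilia. At Foxi3 and Foxb2, the deepest 2, H3K27me3 had 4.35% and 2.26%, and H3K4me1 run 2 had 6.67% and 3.19%. Foxn4, a retinal and spinal interneuron factor, was at 11.4% against 17.5% (adjusted p = 4.15e-06, Fisher's exact test), but within CpGs H3K4me1 was the lower by 2.25 points. At Foxn4 H3K4me1 run 1 was at 14.0% of 615 calls and H3K27me3 from 100000 cells at 15.3% of 1670, so the marks overlapped. Sox7, an endothelial factor, was at 2.69% against 9.73% (adjusted p = 3.23e-12, Fisher's exact test) and 4.35 points apart within CpGs, while the library from 4000 cells had 19.4% of only 36 calls. Dhh was at 6.67% against 11.6% (adjusted p = 9.45e-13, Fisher's exact test).

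Among homeobox genes, Otx2, a factor of forebrain and epiblast, had the lowest levels: 0.755% and 1.13% in H3K27me3 from 250000 cells at its 2 peaks, and 2.62% and 1.77% in H3K4me1 run 2. Among the listed signalling genes, Wnt16, a ligand of bone and joint, was the most methylated, at 24.7% of 1732 calls in H3K27me3 and 32.6% of 43 in H3K4me1. Wnt2b and Wnt6, the deepest Wnt genes, were at 5.13% and 9.03%. Fgf2, a ligand that supports many stem cell types, was at 11.7% in H3K27me3 and 29.3% in H3K4me1 over all its calls, but the 2 were only 2.32 points apart at the CpGs both had called. The germline-expressed ribosomal gene Rpl10l was at 22.9% of 131 calls and 23.2% of 56. Bmp8a had no methylated call of 87 in H3K27me3 and of 21 in H3K4me1, which allows up to 3.45% and 14.3%.

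H3K9me3 fragments were scarce in these peaks, as the rule requires: 977 had no call in H3K9me3 run 2 and 165 had 20 or more. At 9998 CpGs called in both, H3K9me3 run 2 was at 15.2% and H3K4me1 run 2 at 11.6%. In run 1, at 3654 CpGs, the levels were 14.9% and 10.9%. The difference in run 2 was 3.59 points summed over calls and 3.07 points within CpGs. Few calls stand behind it, and run 1 gave 3.96 and 3.70 points.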

How the data were processed

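Methylated and total CpG calls per library were taken as read counts from the authors' deposited table of 21908008 CpGs, with no normalization, and peaks from the deposited unified peak lists. Per the submitters' processing notes, the tools were cutadapt 1.12, Bismark 0.23.0, Bowtie2 2.3.0, HOMER 4.10.3 and bedtools 2.29.2 and the build was mm10; their settings are not given in the sources used here. No column of per-sample values was left unused (0). Libraries held 378056 to 37177077 calls, 95.4% to 98.8% on autosomes.

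A level is methylated calls over all calls of the CpGs in a peak. Fisher's exact test used CpGs called in both libraries and at least 20 calls in each, with Benjamini-Hochberg adjustment over 10996 peaks; limma 3.58.1 used log2 ratios with a pseudocount of 1. Python 3.11.15 with scipy 1.17.1 was used. Only Fisher's test was tried on simulated calls, with 200 peaks of 50 or more calls changed by 30 points. It recovered 93.5% of them, and 1.58% of its calls were false. Smaller differences, the Cochran-Mantel-Haenszel test and limma were not simulated. P-values and 95% Wilson intervals cover counting error between libraries only, since the labels do not say whether the runs of a mark came from separate cultures and they were treated as 1 library. PCR copies of a fragment are not independent molecules.

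Gene starts came from RefSeq promoters on GRCm38.p6 for 25747 of 33069 genes and from the CpG-denser gene end for 7322. The genes named were the 5 deepest, 5 widest, 10 highest (50 calls or more, and 20 in H3K4me1 run 2), the 3 nearest the density threshold on each side and 5 with the largest differences in each direction, with genes of the listed families that started in a peak; 1 listed gene is not reported here. The gene is that whose start lies in the peak, else the nearest. The regions and lists were chosen with earlier results of these data known. Alternatives covered the call minimum, the weighting, the density threshold, the test and the libraries used.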

Additional observations from a re-analysis of the deposited data

How the results depend on the processing

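Of 87 alternative values over 18 results, 33 stayed within the tolerance and 54 moved. The differences between levels kept their sign in each alternative, while levels, shares and counts have no sign that could reverse. Levels followed the density threshold: with 25 CpGs per kb they were 14.4% in H3K4me1, 16.3% in H3K9me3, and 8.63%, 8.69%, 8.79% and 8.88% in H3K27me3 from 4000 to 250000 cells, and with 40 they were 10.1%, 11.2%, 7.28%, 7.07%, 7.21% and 7.32%. CpGs with 5 or more calls gave 12.3% in H3K4me1 and 7.20%, 8.01% and 8.22% in H3K27me3 from 20000 cells up; H3K9me3 run 1 had no such CpG. The mean of single-CpG levels was 14.6% in H3K9me3 and 8.38%, 9.70%, 10.6% and 10.8% in H3K27me3 from 4000 to 250000 cells. The mean of peak levels was 12.9% in H3K4me1 and 8.01%, 10.3%, 11.3% and 11.5% in the same H3K27me3 libraries. Single runs gave 12.8% to 12.8% in H3K4me1 and 14.8% to 14.9% in H3K9me3. Peaks under 10% made up 51.5% in H3K4me1 run 2, 54.4% at 25 CpGs per kb and 71.5% at 40; those from 10% to 50% made up 46.4%, 42.4% and 27.9%, and those at 50% or over 3.25% and 0.638% at the 2 thresholds. A gene start lay within 1000 bp of 63.1%, and in 39.2% and 45.0% at 25 and 40 CpGs per kb. The middle minus the outer parts of peaks was -3.94 points in H3K4me1 and -3.74 in H3K27me3 over single CpGs, and -3.14 and -2.85 in peaks of 2000 bp or wider.

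Fisher counts of 223 and 31 became 137 and 13 with H3K4me1 run 1 in place of run 2, 372 and 71 with runs summed, 14 and 9 at 20 points or more, 135 and 17 by the Cochran-Mantel-Haenszel test and 0 and 0 by limma (380 and 71 at an unadjusted p under 0.05). The 10 calls between H3K27me3 libraries became 25 over all CpGs and, added after seeing the data, 22 for 20000 against 250000 cells. Also added, the difference of 4.01 points between H3K4me1 run 2 and H3K27me3 from 250000 cells was 4.48 over all calls. It was 1.15 over single CpGs and 1.36 within CpGs. The cause of these moves was not tested. No paired analysis was possible because the runs were treated as 1 library and no result comes from a test across paired samples. Depth limits single peaks in H3K4me1 (1.69 and 3.34 calls per CpG) and most of all in H3K9me3 (0.0347 and 0.0853).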
